A study of Mus musculus with 6 samples.

Results

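The genes described here are 7 members of the imprinted domains on distal mouse chromosome 7, namely H19 and Igf2 of the H19-Igf2 domain and Kcnq1ot1, Cdkn1c, Phlda2, Slc22a18 and Ascl2 of the Kcnq1ot1 domain. They were taken by gene symbol from the 43309 genes of the counts table, and all 7 were present. They were chosen by symbol with the differences between the same 6 libraries already known, so these measured differences count as used in the choice and are given below as a description, with no p-value. The libraries were Illumina TruSeq Stranded mRNA libraries, which enrich poly(A) RNA, made with 2 μg of total RNA and 8 PCR cycles from mouse embryonic stem cells (mESCs) of the strain J1 (129SV). Cells were grown in serum on gelatin, with no feeder layer. The 3 control lines were labelled Zbtb24 wild-type (2lox/+), so that they carried 1 floxed allele, and the 3 experimental lines were labelled Zbtb24 knockout (1lox/1lox). Each line was a clone and gave 1 library.

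In mammals an imprinted gene is expressed mainly from the allele of 1 parent, as set by DNA methylation laid down in the germline. At the H19-Igf2 domain, the insulator protein CTCF binds the unmethylated maternal imprinting control region and separates Igf2 from enhancers beyond H19, so that H19 is read from the maternal and Igf2 from the paternal chromosome. At the neighbouring domain, the long non-coding RNA Kcnq1ot1 starts inside Kcnq1 on the unmethylated paternal chromosome and silences Cdkn1c, Phlda2, Slc22a18 and Ascl2 in cis, which leaves these active on the maternal one. Counts per gene do not separate the alleles, and the data hold no measure of methylation.

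Both genes of the H19-Igf2 domain carry a microRNA, and the hairpin of the first bears on how H19 was counted. Mir675 lies in H19 at chr7:142577064-142577147 on the minus strand, and Mir483 lies in an intron of Igf2 at chr7:142654924-142654996 on the minus strand. The RefSeq sequences of GRCm38.p6, the assembly called mm10 here, are shown 5′ to 3′, with the mature arms of the Mir675 hairpin in capitals and the seed (bases 2 to 8) in capitals in each mature microRNA.
Mir675 hairpin: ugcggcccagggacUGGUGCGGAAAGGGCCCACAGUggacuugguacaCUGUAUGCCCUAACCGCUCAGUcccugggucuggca
mmu-miR-675-5p: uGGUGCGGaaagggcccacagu
mmu-miR-675-3p: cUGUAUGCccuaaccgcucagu
mmu-miR-483-5p: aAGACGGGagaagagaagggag
mmu-miR-483-3p: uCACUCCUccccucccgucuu

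These 4 seeds differed from each other, and each occurred in 1 of the 1738 mature microRNAs of the table. The 84 bases of the hairpin are 3.42% of the 2460 exonic bases of H19. Mir675 was a gene of its own in the counts table, and fragments falling on more than 1 gene had been discarded, so fragments over the annotated hairpin would not enter the H19 count. Mir675 itself had 0 counts in every library and Mir483 at most 1, and a poly(A) library is not made to capture mature microRNAs.

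Promoter windows of 250 bases before to 50 after a start site were found in the RefSeq table for 5 of the 7 genes, in 8 windows. H19 and Cdkn1c had no entry. The Kcnq1ot1 window at chr7:143296498-143296797 on the minus strand lies where maternal methylation is known to silence this RNA, and it is shown with CG dinucleotides in capitals. Beside it stand the 250 bases before the start of Igf2 nearest to its coding end, at chr7:142657497-142657746, and before the start of Phlda2, at chr7:143502525-143502774, both on the minus strand. Igf2 is shown as the member with the largest difference below, and Phlda2 as the abundant member with a small one.
Kcnq1ot1: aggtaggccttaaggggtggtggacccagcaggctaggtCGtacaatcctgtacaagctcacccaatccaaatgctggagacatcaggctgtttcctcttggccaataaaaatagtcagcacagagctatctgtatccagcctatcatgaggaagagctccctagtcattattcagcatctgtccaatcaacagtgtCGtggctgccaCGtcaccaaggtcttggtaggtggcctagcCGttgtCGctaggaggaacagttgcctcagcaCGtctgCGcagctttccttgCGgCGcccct
Igf2: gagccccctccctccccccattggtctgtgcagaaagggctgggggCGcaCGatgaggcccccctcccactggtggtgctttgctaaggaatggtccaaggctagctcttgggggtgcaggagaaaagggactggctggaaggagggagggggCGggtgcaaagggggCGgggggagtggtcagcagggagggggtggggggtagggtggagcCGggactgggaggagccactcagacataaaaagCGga
Phlda2: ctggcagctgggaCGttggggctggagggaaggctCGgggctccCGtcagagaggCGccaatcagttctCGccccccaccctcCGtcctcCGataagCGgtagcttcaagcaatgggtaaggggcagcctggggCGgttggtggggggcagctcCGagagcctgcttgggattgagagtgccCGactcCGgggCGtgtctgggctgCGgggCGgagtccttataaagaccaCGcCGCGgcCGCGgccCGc

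The shown Kcnq1ot1 window held 9 CG dinucleotides, the Igf2 stretch 6 and the Phlda2 stretch 21. Over full windows of 300 bases, the counts were 26 for Phlda2, 23 for Ascl2 and 2 for Slc22a18, and those of the 4 Igf2 windows ran from 2 to 24, beside a median of 7 over 32851 windows. The letters CCAAT, read on both strands, occurred 3 times in the window of Kcnq1ot1 and 3 times in that of Ascl2, and at least once in 37.4% of all windows. CAGGACCT, the core of the sequence that the zinc fingers of ZBTB24 are known to bind, read on both strands, occurred in none of the 8 windows and in 1.99% of all windows. Neither string holds a CG.

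Depth was alike in the 6 libraries, from 25042261 to 28838924 counted fragments. All 7 genes passed the filter of at least 10 counts in at least 1 library, as did 16823 genes in all. The targeted gene Zbtb24 did not fall in the libraries labelled knockout. Its counts were 489 to 512 in the controls, against 888 to 1039 in the lines labelled knockout (log2 fold change 0.99, standard error 0.05, edgeR adjusted p = 4.32e-23). This goes against the label, although a count over the whole gene does not tell a deleted exon from an intact one, and directions below follow the labels. Libraries of 1 group were close (common dispersion 4.02e-04), and the groups differed widely, so that 69.5% of all genes tested passed the test, with 34.4% higher and 35.2% lower under the knockout label. Counts of called genes below are to be read beside these shares. A gene that reached the filter of 10 counts only in the controls could not be called higher, and the reverse holds for the other group.

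H19 was the most abundant of the 7 transcripts in the control libraries and stood at 8.29% of that level in the libraries labelled knockout, and its partner Igf2 stood lower still, at 3.51%. H19 (chromosome 7, 142575529 to 142578143, minus strand) is a spliced long non-coding RNA that is abundant in the fetus. It had 10497, 10335 and 10725 counts in control lines 1 to 3 and 818, 677 and 996 in the lines labelled knockout 1 to 3. As TMM-scaled cpm (counts per 1000000 of the scaled library total), its level was 379.9 ± 9.41 in the controls, against 31.4 ± 3.89 in the lines labelled knockout (SD, n = 3 each). The control level was 12.1 times the other, a log2 fold change of -3.59 (standard error 0.04). The groups were far apart, and the lines labelled knockout spread more among themselves than the controls, with a coefficient of variation of 12.4% against 2.48%, where counting error alone gives 3.47% and 0.98%.

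Igf2 (142650766 to 142666816, minus strand) encodes insulin-like growth factor 2, a growth factor of the embryo and placenta. It had 1020, 1004 and 1045 counts in the control libraries and 34 in each library labelled knockout. Its level was 36.95 ± 0.975 cpm in the controls, against 1.30 ± 0.09 cpm in the lines labelled knockout (SD, n = 3 each), which is 28.5 times lower, with a log2 fold change of -4.83 (standard error 0.09). No library came near the other group. At 34 counts the counting error of a single library is 17.2%, so the spread of 6.83% among these 3 lines was below it.

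The transcript on the other strand of Igf2, Igf2os, gave 26 to 40 counts in the controls, against 1 to 5 in the lines labelled knockout, and it fell by 3.44 on the log2 scale (standard error 0.41, adjusted p = 2.64e-10). The 2 genes share 98 exonic bases and were counted by strand.

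Although both genes were lower, they were not lower by the same factor. Each control library held 10.3 H19 counts per Igf2 count (SD 0.017, n = 3), and the libraries labelled knockout held 24.1, 19.9 and 29.3. The controls lay closer together than counting error of Igf2 alone gives (3.13%), so their closeness is no measure of the lines. In the libraries labelled knockout the ratio was 24.4 with an SD of 4.70, where counting error of Igf2 is 17.2%. This scatter therefore cannot be told from counting error. Because Igf2 had 34 counts in each of these libraries, the ratios rank as the H19 counts do (818, 677 and 996). Each of these ratios still rests on only 34 Igf2 counts. The summed level of the 6 fibroblast markers tested was also lower, at 9.53 to 10.1 cpm in the lines labelled knockout against 56.0 to 59.5 cpm in the controls. Without Col1a1, the most abundant of them, it was 5.65 to 6.17 cpm against 16.2 to 17.1 cpm. The part of fibroblast-like cells in the levels of H19 and Igf2 was not tested.

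**Figure D1:**
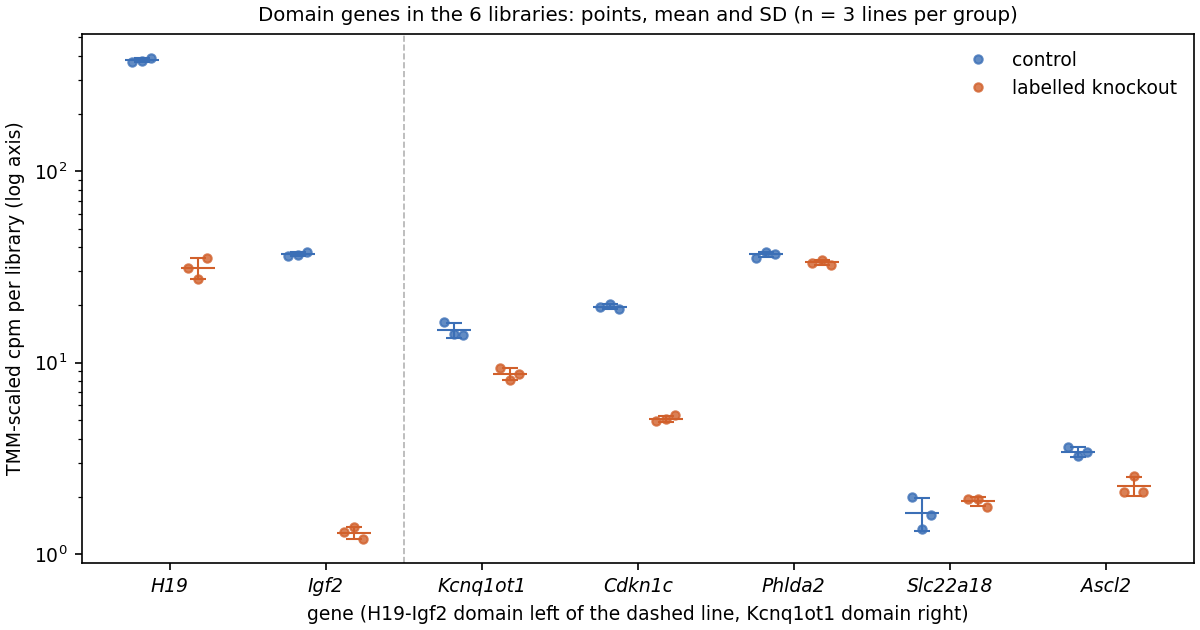
TMM-scaled cpm of the 7 domain genes on a log axis, 1 point per library, with the mean and SD of 3 lines for the control (blue) and labelled knockout (orange) groups. The widest gaps are in Igf2 (36.95 against 1.30) and H19 (379.9 against 31.4), Cdkn1c is next, and the groups of Slc22a18 overlap.

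In the Kcnq1ot1 domain the differences were smaller and uneven: Cdkn1c was lower by the widest margin, Kcnq1ot1 and Ascl2 by less, Phlda2 by little, and the groups of Slc22a18 overlapped. Kcnq1ot1 (143203458 to 143296549, minus strand), annotated as 1 unspliced transcript of 93.1 kb, had 458, 387 and 382 counts in the controls, against 244, 199 and 247 in the lines labelled knockout. Its level was 14.8 ± 1.32 cpm against 8.72 ± 0.63 cpm (SD, n = 3 each), a log2 fold change of -0.76 (standard error 0.07). The groups did not overlap, and control line 1 stood above the other two controls.

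Cdkn1c (143458339 to 143461050, minus strand) encodes p57Kip2, an inhibitor of cyclin-dependent kinases that restrains cell proliferation in the embryo. Its counts were 551, 554 and 524 in the controls, against 129, 125 and 150 in the lines labelled knockout. The level was 19.6 ± 0.54 cpm against 5.11 ± 0.19 cpm (SD, n = 3 each), a log2 fold change of -1.94 (standard error 0.07), and no library of 1 group was near the other. Cdkn1c and Kcnq1ot1 were both lower. Counts of Cdkn1c per count of Kcnq1ot1 were 1.33 ± 0.12 in the controls and 0.59 ± 0.05 in the lines labelled knockout (SD, n = 3 each).

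Ascl2 (142966829 to 142969264, minus strand) encodes a basic helix-loop-helix factor needed for the spongiotrophoblast of the placenta. It was scarce, with 102, 89 and 94 counts in the controls, against 55, 63 and 60 in the lines labelled knockout. Its level was 3.43 ± 0.19 cpm against 2.26 ± 0.26 cpm (SD, n = 3 each), a log2 fold change of -0.60 (standard error 0.14), and the groups did not overlap.

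Phlda2 (143501545 to 143503150, minus strand) encodes a small pleckstrin homology domain protein that limits placental growth. Its counts were 995, 1039 and 1019 in the controls, against 870, 847 and 916 in the lines labelled knockout. After scaling, the level was 36.8 ± 1.26 cpm against 33.4 ± 0.98 cpm (SD, n = 3 each), a log2 fold change of -0.14 (standard error 0.04). The groups stood close, with the lowest control library at 35.4 cpm and the highest library labelled knockout at 34.4 cpm. The start of Phlda2 lies 925.0 kb from that of H19, and the start of Cdkn1c 882.9 kb. Phlda2 counts per Cdkn1c count were 1.88 ± 0.07 in the controls and 6.54 ± 0.38 in the lines labelled knockout (SD, n = 3 each).

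Slc22a18 (143473736 to 143499334, plus strand) encodes an organic cation transporter-like protein. It had 56, 37 and 44 counts in the controls, against 51, 48 and 50 in the lines labelled knockout. The level was 1.65 ± 0.32 cpm against 1.89 ± 0.10 cpm (SD, n = 3 each), with a log2 fold change of 0.19 (standard error 0.17), and the groups overlapped. At this depth a small difference in Slc22a18 was not detectable.

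In all, 6 of the 7 genes had groups that did not overlap, each time lower under the knockout label, beside 36.2% of all genes tested. A log2 fold change of -1 or lower was found in 3 of the 7, beside 12.0% of all genes tested. Since this contrast was known when the genes were chosen, these counts are not evidence about the domains. Among the 12360 genes that averaged 50 counts or more, Igf2 had the 13th lowest log2 fold change, H19 the 53rd and Cdkn1c the 289th. Kcnq1ot1 had the 1260th, Ascl2 the 1627th and Phlda2 the 4158th, and Slc22a18 averaged too few counts to be ranked. These ranks are likewise a description. In bulk samples, fewer cells expressing a gene and less RNA per cell cannot be told apart.

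The order of the genes changed as well. On the scale of cpm per kb of the longest annotated transcript, the control order was H19 (166.2), Phlda2 (48.6), Cdkn1c (10.3), Igf2 (7.83), Ascl2 (2.14), Slc22a18 (1.06) and Kcnq1ot1 (0.159). In the libraries labelled knockout it was Phlda2 (44.1), H19 (13.7), Cdkn1c (2.69), Ascl2 (1.41), Slc22a18 (1.22), Igf2 (0.274) and Kcnq1ot1 (0.0937). Igf2 thus went from the fourth place to the sixth, and Phlda2 took the first. Neighbours in either order did not overlap between libraries, and the closest were Ascl2, with a lowest value of 1.31 cpm per kb, and Slc22a18, with a highest value of 1.26, in the libraries labelled knockout. The place of Kcnq1ot1 depends on its annotated length of 93.1 kb, taken from a later annotation release than the one the authors counted with. Among the genes tested that have a length, the per-kb level of Igf2 stood at percentile 60.2 in the controls and 15.2 in the lines labelled knockout, and that of H19 at 71.2 in the latter.

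**Figure D2:**
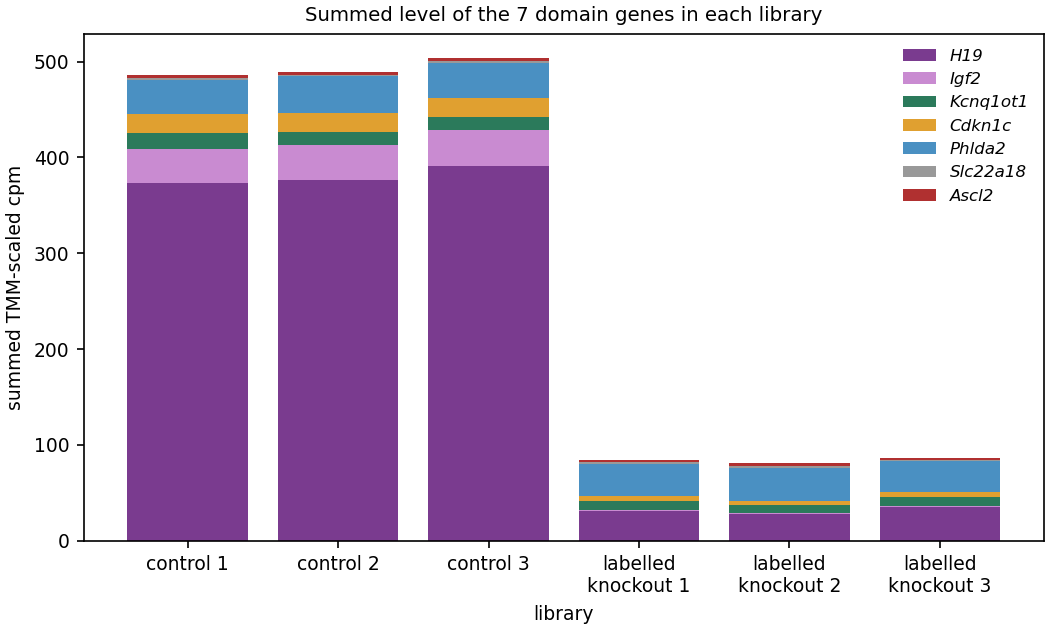
Stacked TMM-scaled cpm of the 7 domain genes in each library. H19 alone made up 77.1% of their summed counts in the controls and 37.3% in the libraries labelled knockout, and the Phlda2 segment stays nearly the same height in all 6 libraries.

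Genes in and around the domains, Igf2os and Kcnq1 among those inside, were examined through a list of 33 neighbours, of which 23 were tested. Of these, 15 fell and 6 rose, so that 91.3% passed the test beside 69.5% of all genes, with a median log2 fold change of -0.54 beside -0.0004 over all genes tested. Syt8, Tnni2, Lsp1, Prr33, Tnnt3 and Igf2os reached the filter of 10 counts only in the controls, so they could only be called lower. With a filter of 50 counts, 9 fell and 6 rose of 16 tested, and that filter too can be passed in the controls only. On the side of H19 away from Igf2, 11 were tested, of which 9 fell, 1 rose and 1 did not pass. The genes just named, apart from Igf2os, all lie on this side, so its count of lower genes was partly fixed by the filter. The largest differences were in genes of at most 96 counts per library. The more abundant Ctsd (5490 to 5614 counts in the controls) had a log2 fold change of -0.42 and Tollip -0.09. Mob2 (499 to 537 counts in the controls) had 0.002 and did not pass. Brsk2 and the scarce Prr33 had -1.19 and -2.73. Tnnt3, a fast skeletal troponin T, had 63 to 81 counts in the controls and 3 to 6 in the libraries labelled knockout, 16.8 times lower (adjusted p = 7.66e-18). Lsp1, an actin-binding protein of leukocytes, was 9.20 times lower and Dusp8, a phosphatase of stress-activated kinases, 8.71 times lower. The scarce Syt8 had 18 to 28 counts in the controls and 0 to 1 in the libraries labelled knockout, and Tnni2 had 10 to 11 and 0 to 2. The mitochondrial ribosomal gene Mrpl23, which lies between Tnnt3 and H19, rose 1.15-fold (adjusted p = 3.21e-04).

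Between H19 and Kcnq1ot1, 5 neighbours were tested, of which 3 fell and 1 rose. With R74862 (log2 fold change 0.49, called) and Tspan32os (0.53, not called), which were tested but not on the list, 3 fell and 2 rose of 7. Besides Igf2os these were Cd81, a tetraspanin, at 1.41 times lower (adjusted p = 6.6e-20), Tspan32 with a log2 fold change of -0.54, whose call was lost when any library but control 3 was left out (edgeR adjusted p 0.0548 to 0.0818) and with DESeq2 (adjusted p = 0.129), and Tssc4, which rose 1.16-fold. Ins2 had 0 counts in every library, Th 2 to 10, and Kcnq1 at most 5, while Kcnq1ot1, transcribed through it on the other strand, had 199 to 458.

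Beyond Kcnq1ot1, 7 neighbours were tested, of which 3 fell and 4 rose, and their median log2 fold change was 0.20. Tnfrsf22, a decoy-type receptor of TNF-related ligands, fell most of these 7, at 145.6 ± 4.04 cpm against 31.7 ± 1.29 cpm (SD, n = 3 each), 4.61 times lower (adjusted p = 1.38e-43). Osbpl5 and Tnfrsf23 had log2 fold changes of -0.64 and -0.73, and Nadsyn1 had 0.38. The nucleosome assembly gene Nap1l4, next to Phlda2, rose 1.15-fold, Cars, a cysteinyl-tRNA synthetase, 1.43-fold and Dhcr7, the last enzyme of cholesterol synthesis, 1.39-fold. Chromosome 7 as a whole had a median log2 fold change of -0.08 over 1290 genes tested.

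**Figure D3:**
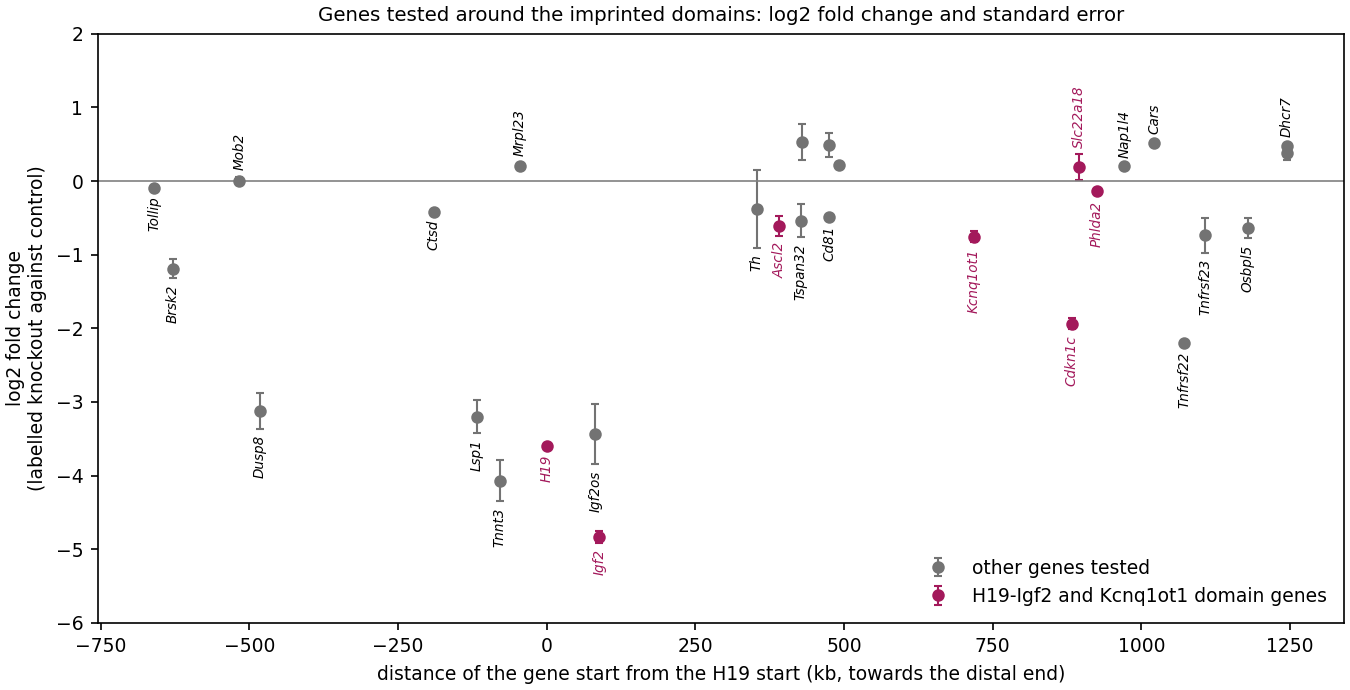
Log2 fold change (libraries labelled knockout against control) with its standard error for the genes tested in and around the domains, against the distance of their start from the H19 start in kb. The 7 domain genes described here are purple, 4 close-packed genes are left unnamed, and 3 genes with at most 3 counts in each library labelled knockout are not drawn. Some of the other genes, such as Igf2os, also lie inside the domains. Of the genes drawn, Igf2, Tnnt3, H19, Igf2os, Lsp1 and Dusp8 lie lowest, and the points beyond Igf2 lie between -2.20 (Tnfrsf22) and 0.53.

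The list of 24 genes of the IGF axis had 21 genes tested, of which 13 fell and 6 rose (90.5% called). Its median log2 fold change was -0.40. Pappa and Igfbp6, both called lower, reached the filter only in the controls. Igf2r, which binds IGF2 and carries it to degradation, rose 1.15-fold, from 102.4 ± 1.73 cpm to 118.0 ± 3.20 cpm (adjusted p = 3.29e-08), and Igf1r, through which IGF2 signals, rose slightly (log2 fold change 0.26, adjusted p = 2.08e-04), while the insulin receptor gene Insr had a log2 fold change of -0.39. Of the 6 IGF binding proteins tested, 4 fell (Igfbp3, Igfbp4, Igfbp5 and Igfbp6), Igfbp2 rose and Igfbp7 did not pass. Igfbp3 fell 6.49 times, from 2835 to 2906 counts in the controls to 397 to 445 in the libraries labelled knockout (adjusted p = 9.65e-45), while Igfbp2 rose 1.82-fold. Irs2, an adaptor of the insulin and IGF receptors, fell 5.65 times.

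The proteins that bind the Igf2 messenger RNA were abundant throughout. Igf2bp1 was at 856.0 ± 31.4 cpm in the controls and fell 1.13 times, Igf2bp2 rose 1.38-fold and Igf2bp3 1.13-fold. Hmga2, a chromatin protein and known target of let-7 microRNAs, fell 2.96 times (adjusted p = 3.89e-30). The protease gene Htra1 rose 1.44-fold.

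Of the 12 relatives of the protein-coding members, 9 were tested, and 6 fell and 1 rose (77.8% called). Of the cyclin-dependent kinase inhibitors related to Cdkn1c, Cdkn1a (p21) fell 1.70 times (adjusted p = 8.87e-20) and Cdkn1b (p27) rose 1.40-fold (adjusted p = 8.05e-13). The 2 relatives of Phlda2 differed from it: Phlda1 fell 3.42 times, from 571 to 692 counts to 166 to 196, and Phlda3 fell 1.40 times. Slc22a23, Slc22a17 and Slc22a5 fell, with log2 fold changes of -1.49, -0.84 and -0.36.

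The list of 29 factors that set, protect or read imprints had all 29 tested, with 12 higher, 10 lower (75.9% called) and a median log2 fold change of 0.04. The insulator gene Ctcf was at 258.3 ± 4.53 cpm in the controls and 262.2 ± 1.07 cpm in the libraries labelled knockout (log2 fold change 0.02, standard error 0.02, adjusted p = 0.444). Trim28 (0.01, adjusted p = 0.82), Dnmt1 (0.04, adjusted p = 0.094) and Uhrf1 (-0.05, adjusted p = 0.0788), which keep methylated imprints through cell division, had log2 fold changes near 0. Uhrf1 was called without TMM factors (edgeR adjusted p = 3.39e-04), with a filter of 50 counts and without the line labelled knockout 3. Dnmt1 was called without control line 1 (log2 fold change 0.05, edgeR adjusted p = 0.0418). Zfp57, the zinc finger protein that recognises methylated imprints, rose 1.49-fold (adjusted p = 9.92e-27). Of the genes of new methylation, Dnmt3b fell 4.21 times, from 431.0 ± 13.0 cpm to 102.4 ± 2.87 cpm (adjusted p = 6.72e-47), and Dnmt3l fell 1.92 times. The demethylase gene Tet2 rose 2.34-fold, the cohesin subunit gene Rad21 rose 1.38-fold, and the histone methyltransferase gene Ehmt1 had a log2 fold change of -0.53 (adjusted p = 5.33e-21).

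Of 34 imprinted genes of other domains, 33 were in the table and 32 were tested, and 20 fell and 8 rose (87.5% called), with a median log2 fold change of -0.36. Rtl1 and Airn, both called lower, reached the filter only in the controls. The maternally expressed RNAs Mirg, Meg3 and Rian of the Dlk1-Meg3 cluster had log2 fold changes of -2.80, -2.64 and -2.44, Magel2 had -2.62 and the paternally expressed Peg10 -1.92. The first 4 lay between the differences of Cdkn1c and H19.

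Markers of several cell types were examined. The share of tested markers called was 100% for embryonic stem cells and fibroblasts and 87.5% for trophoblast. It was 62.5% for extraembryonic endoderm and 66.7% for mesoderm, below the 69.5% of all genes tested. The 10 markers of embryonic stem cells were all tested and changed, 7 of them higher, with summed levels of 4152 to 4223 cpm in the controls and 5346 to 5438 cpm in the libraries labelled knockout, so that all libraries expressed them. Klf4 rose 3.74-fold, and Tfcp2l1, Esrrb and Nanog had log2 fold changes of 1.56, 1.16 and 1.13, while Zfp42 had -0.77. Of 8 fibroblast markers 6 were tested, and all 6 fell, with summed levels of 56.0 to 59.5 cpm against 9.53 to 10.1 cpm, or 16.2 to 17.1 cpm against 5.65 to 6.17 cpm without Col1a1. Of these, Col3a1, Postn and Dcn reached the filter of 10 counts only in the controls, so they could only be called lower. With a filter of 50 counts 3 were tested, and all 3 fell. Col1a1 was 10.5 times lower, Col1a2 8.86 times lower and Thy1 had a log2 fold change of -0.76, and Lum had 0 counts in every library. The median log2 fold change of these 6 was -3.16, or -1.85 with the 2 genes at the floor of 3 counts set at their bound.

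Of 10 trophoblast markers 8 were tested, with 5 lower and 2 higher, a median log2 fold change of -1.27 and a summed level of 84.9 to 89.9 cpm against 80.2 to 82.2 cpm. Without Tfap2c, the most abundant of them, the sum over 7 tested genes was 32.4 to 36 cpm against 9.88 to 11.9 cpm. Hand1 was 8.91 times lower, Krt7 8.90 times lower and Gata3 had a log2 fold change of -1.48, while Tfap2c and Eomes had 0.41 and 0.40, and Tpbpa had 0 counts in every library. Plac1, called lower, reached the filter only in the controls. Of the 10 extraembryonic endoderm markers 8 were tested, with 3 lower and 2 higher (Sox7 at a log2 fold change of 1.24 and Lama1 at 0.69), with a median of -0.10, and their summed level was 86.2 to 92.9 cpm against 130.4 to 140.0 cpm. Without Lama1 the sum over 7 tested genes was 11.7 to 13.0 cpm against 10.7 to 12.9 cpm, so that the groups overlapped. Sox17 and Foxa2, both called lower, reached the filter only in the controls. Of the 8 mesoderm markers 6 were tested, with 2 lower (Hand1 and Kdr) and 2 higher (Mixl1 at a log2 fold change of 1.18 and Eomes at 0.40). Their median was -0.16 and their summed level 17.1 to 18.6 cpm against 11.2 to 12.6 cpm. The lower sum rests largely on Hand1, also a trophoblast marker here, at 7.37 cpm in the controls against 0.83 cpm. Kdr was at 3.35 against 1.90 cpm, and Eomes at 4.68 against 6.21 cpm. The mesoderm marker T just missed the call (log2 fold change -0.45, edgeR adjusted p = 0.0508). Without TMM factors, or with the replicate number as a block, 5 of the 6 mesoderm markers were called, 3 lower and 2 higher. H19 and Igf2 are also expressed in differentiated cells of these kinds. The part of such cells in the levels of the 7 genes was not tested.

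**Figure D4:**
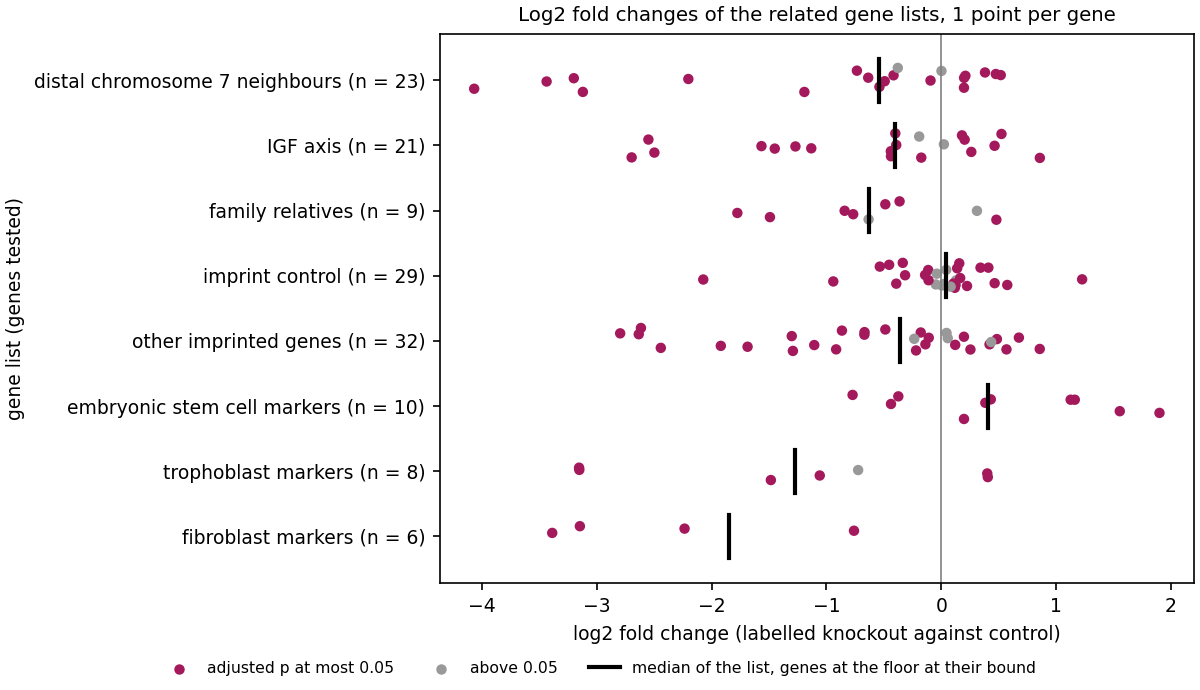
Log2 fold change (libraries labelled knockout against control) of each gene tested in 8 lists, purple where the adjusted p was at most 0.05 and grey otherwise, with the list median as a bar. The 9 genes with at most 3 counts in each library labelled knockout are not drawn and enter the median at their bound. The imprint control list is centred near 0 (median 0.04), and the fibroblast list lies furthest to the left.

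The genes with profiles most like those of 3 of the members were found by the Euclidean distance between centred log2(cpm + 1) profiles over the 6 libraries, among 12360 genes. For H19 these were Gbp2, a guanylate-binding protein of the interferon response, a gene with no symbol in the annotation used, and Acta2, smooth muscle actin, at distances of 0.07, 0.14 and 0.27. For Igf2 they were Tagln (transgelin), Acta1 (skeletal muscle actin) and Krt18 (a keratin of simple epithelia), at 0.19, 0.20 and 0.23. For Kcnq1ot1 they were Shroom4, Apobr and Gusb, at 0.12, 0.13 and 0.15. All 9 had groups that did not overlap, each lower under the knockout label, beside 36.2% of all genes tested. This follows from choosing them by likeness to members whose groups were separate, so it is no further result.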

How the data were processed

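Messenger RNA was measured in 6 libraries of mESC lines, 3 control and 3 labelled Zbtb24 knockout, grouped by their titles. According to the submitters' processing notes and the study's methods, base calling used CASAVA 1.8.2, rRNA reads were removed with Bowtie2 2.1.0, the rest were mapped to mm10 with TopHat2 2.0.10, and fragments were counted per GENCODE Release M4 gene with HTSeq 0.6.1 in union mode by strand. Fragments in several genes, at several locations or antisense were discarded. The authors deposited raw counts, unfiltered and not normalized, and totals are given with the results.

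Symbols, positions and lengths came from GENCODE Release M21 (mm10) by Ensembl identifier, which matched 42425 of 43309 genes. Genes with at least 10 counts in 1 library were tested across the whole table with edgeR 4.0.16 in R 4.3.3 (TMM, glmQLFit, glmQLFTest, no covariate), and an adjusted p (Benjamini-Hochberg) of at most 0.05 was called. The standard error is the log2 fold change divided by the square root of F. Levels are TMM-scaled cpm. In simulated counts of the 16823 genes, only 200 genes were changed. There, 95.2% of changes of 0.5 and 100% of changes of 1 on the log2 scale were recovered, with 4.85% of calls false. In the data 69.5% of all genes tested were called, so these rates cannot be taken to hold for this contrast. The changed genes were drawn only from those averaging 50 counts or more, so the recovery rates do not cover scarcer genes.

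The 7 members and the lists were chosen with earlier results of these data known. Named besides them are Zbtb24, the measured neighbours, 15 fixed regulators and relatives, up to 5 more genes per other list (called, averaging 50 counts or more, without overlap between groups, largest log2 fold change first), and the 3 closest profiles of H19, Igf2 and Kcnq1ot1. Genes named outside this rule were chosen after their values were seen. One gene under the rule is not reported here. Each library counts as 1 replicate because the labels and the study's methods give it as a separate line. No 2 libraries of a group agreed within counting noise (highest p = 3.57e-34, chi-square test over genes), as a library deposited in duplicate would, but this does not show how separate the lines are, and p-values measure the spread between these libraries. Intervals cover no PCR duplication, which was not marked. Alternatives were DESeq2 1.42.0, edgeR's exact test, other scalings and filters, the replicate number as a block, and leaving out each library.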

Additional observations from a re-analysis of the deposited data

How the results depend on the processing

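All 7 members kept the sign of their log2 fold change in all 13 alternatives. Leaving out 1 library at a time gave log2 fold changes from -3.69 to -3.51 for H19, -4.88 to -4.78 for Igf2, -0.81 to -0.68 for Kcnq1ot1, -1.97 to -1.91 for Cdkn1c, -0.17 to -0.12 for Phlda2, -0.70 to -0.56 for Ascl2 and 0.07 to 0.35 for Slc22a18. Without TMM factors, Cdkn1c was at -1.99 and Phlda2 at -0.19. Over all genes, 11697 were called (5780 higher and 5917 lower), with 5047 higher and 6590 lower without TMM factors, and 2865 (877 higher and 1988 lower) when a log2 difference of 1 or more, in either direction, was also asked. With a filter of 50 counts, 3 fibroblast markers and 3 extraembryonic endoderm markers were called in place of 6 and 5, because fewer genes were tested. The replicate numbers do not pair the lines: deviations of same-numbered libraries correlated at 0.01 to 0.07, and with the replicate number as a block 11801 genes were called. Tollip lost its call with DESeq2 and without control replicate 2 or experiment replicate 3. Depth limits Slc22a18, Ascl2 and the scarce neighbours.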
